A study of Mus musculus with 12 samples.

Results

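The intronic BRG1 regions away from promoters were selected on position from the regions called for BRG1 enrichment, so that BRG1 enrichment is what chose them and not a result. They are the distinct regions of the BRG1 ChIPseq list of wild-type cardiac precursors (CPs) that were narrower than 1000 bp, overlapped a gene body, and overlapped neither an annotated exon nor the 1 kb on either side of any annotated transcription start site (TSS). In mm9 with GENCODE M1, 351 of 3473 distinct regions met this definition, and they filled 369 of the 4791 rows of the list. The CPs were derived from wild-type mouse embryonic stem cells of strain W4/129S6, through embryoid bodies grown with VEGF, Activin and BMP4 and then monolayers grown with FGFs. BRG1 was immunoprecipitated from chromatin crosslinked with DSG and formaldehyde and cut with MNase, in 2 ChIP libraries that were set against 1 input library. The list gives 1 set of positions for both libraries and no signal, so BRG1 levels, depth and the spread between replicates are unknown. It also holds no transcript, so cell identity could not be checked against markers. Every interval below is a 95% interval for counting error over regions. Where 2 shares are said to differ, the interval of their difference excluded 0, or, against genome-wide intronic windows, the interval of the regions' own share left out that of the windows.

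BRG1, encoded by Smarca4, is the ATPase of BAF complexes, which slide and evict nucleosomes. BAF complexes have no strong preference for a DNA sequence of their own and are brought to many sites by transcription factors. Introns, in particular the long introns near the start of a gene, often hold enhancers, the distal elements to which GATA, T-box, MEF2, TEAD and homeodomain factors such as MEIS bind in developing heart cells. Promoters of widely expressed genes, in contrast, commonly lie in CpG islands, which are rich in GC boxes for SP and KLF factors.

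The sequences of 9 regions show the words that the comparisons below turn on. All are mm9 plus-strand sequence, read 5′ to 3′. Capitals mark, on either strand, a GATA word (AGATAA or AGATAG or TGATAA or TGATAG), the MEIS word TGACAG, or the T-box word AGGTGTGA. The first is a region in an intron of Gata4, which encodes a cardiac transcription factor and was the single gene of the list of cardiac transcription factors to host a member. It held none of these words.
Gata4, chr14:63888066-63888145: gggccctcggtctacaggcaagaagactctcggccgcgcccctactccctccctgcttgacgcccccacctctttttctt
Among the regions of 300 bp or less with 2 or more GATA words, the next 4 had the most for their width. Arid1b encodes a BAF subunit, and Kifap3, an adaptor of kinesin motors, also held a T-box word.
Arid1b, chr17:5099386-5099485: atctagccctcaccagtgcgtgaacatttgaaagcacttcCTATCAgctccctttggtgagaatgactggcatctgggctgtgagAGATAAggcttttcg
3110009E18Rik, chr1:122073086-122073205: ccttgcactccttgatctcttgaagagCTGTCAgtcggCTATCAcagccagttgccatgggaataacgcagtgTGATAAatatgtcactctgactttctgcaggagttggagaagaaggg
Smtnl2, chr11:72221166-72221285: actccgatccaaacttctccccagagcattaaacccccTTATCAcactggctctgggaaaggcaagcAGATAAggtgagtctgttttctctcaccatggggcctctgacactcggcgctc
Kifap3, chr1:165804406-165804525: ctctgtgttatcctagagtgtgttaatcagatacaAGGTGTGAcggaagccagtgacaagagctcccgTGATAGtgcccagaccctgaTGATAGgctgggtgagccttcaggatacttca
A region in Uvrag, which encodes an autophagy protein, was the other one of 300 bp or less to hold the T-box word.
Uvrag, chr7:106192626-106192765: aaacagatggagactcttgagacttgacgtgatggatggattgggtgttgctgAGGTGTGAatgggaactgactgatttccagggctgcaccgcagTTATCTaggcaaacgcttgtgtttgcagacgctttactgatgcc
The last 3 held 3 MEIS words each, the highest number in any region, and were chosen after the word counts were seen. Cacna2d2 encodes a calcium channel subunit, Pawr a regulator of apoptosis and Rfx8 a member of the RFX family.
Cacna2d2, chr9:107366666-107366845: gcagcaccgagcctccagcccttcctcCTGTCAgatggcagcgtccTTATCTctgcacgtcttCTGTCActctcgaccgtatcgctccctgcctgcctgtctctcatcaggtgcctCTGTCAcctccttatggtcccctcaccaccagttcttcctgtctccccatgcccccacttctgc
Pawr, chr10:107831446-107831585: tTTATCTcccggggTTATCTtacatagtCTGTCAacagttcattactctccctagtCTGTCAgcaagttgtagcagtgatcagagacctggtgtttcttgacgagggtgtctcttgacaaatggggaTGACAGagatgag
Rfx8, chr1:39745586-39745685: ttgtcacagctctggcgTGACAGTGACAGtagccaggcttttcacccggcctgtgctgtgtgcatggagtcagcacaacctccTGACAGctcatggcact

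The regions were short. Their median width was 180 bp (quartiles 120 and 320 bp), against 200 bp for 445 intergenic regions and 360 bp for 2248 promoter regions of the same list under 1000 bp. The narrowest, in intron 20 of Ccdc158, spanned 20 bp, and 261 (74.4%) were 300 bp or less. Several spanned 40 bp, among them those in Gm17696 and in the very long gene model named Fgfr2. The widest, in intron 1 of Atf7ip, spanned 980 bp, and the next 4 spanned 960 bp each, in Spred2, Gm805, Smad4 and Rragd. Just past the width limit was a region of 1000 bp in 2310014F06Rik, and 20 intronic regions in all were left out for their width. The member nearest to the promoter limit lay in Fam49b, 1003 bp from a TSS, and the region nearest to it on the other side lay in Pdgfb at 993 bp. A total of 18 members (5.13%) were listed on 2 rows, compared with 18.1% of promoter regions on 2 or more rows.

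The regions lay closer to the starts of genes than intronic sequence in general. As the reference, 200 bp windows were placed every 1 kb over all introns away from promoters and exons, which gave 879749 windows. The midpoint of 143 members (40.7%, 35.7% to 46.0%) lay in the first intron of the longest host transcript that covered it, against 27.7% of windows. In the second intron the shares were 18.8% (15.1% to 23.2%) and 16.7%, so there the windows lay inside the members' interval. The median distance to the nearest TSS was 12.8 kb (quartiles 4.71 and 33.9 kb) for members and 19.4 kb for windows. With TSSs of protein-coding genes only, both medians were larger, at 20.4 kb for members and 26.6 kb for windows. Counting a first intron of any host transcript, the shares were 49.6% for members and 37.1% for windows. Members were more frequent 1 to 5 kb from a TSS, with 26.2% (21.9% to 31.1%) against 17.4%, and less frequent at 100 kb or more, with 5.70% (3.72% to 8.64%) against 11.3%. Nearness to a TSS was bounded below by the definition for members and windows alike. The first 25% of the host gene's length held 33.6% (28.9% to 38.7%) of members and 24.97% of windows, whereas the last 25% held 18.8% (15.1% to 23.2%) and 22.5%, within the interval.

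**Figure D1:**
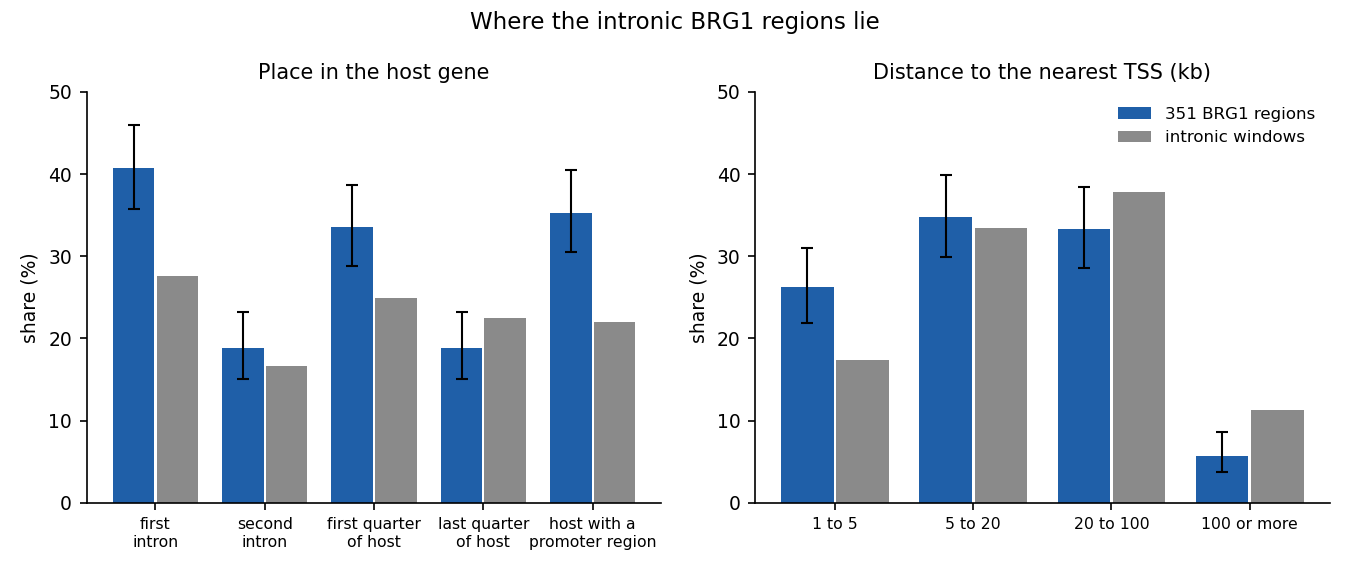
Share of the 351 intronic BRG1 regions (blue, with 95% Wilson intervals) and of 879749 intronic windows (grey) in each place in the host gene (left) and at each distance from the nearest TSS in kb (right). The blue bars stand above the grey for the first intron (40.7% and 27.7%), for hosts with a promoter region in the list (35.3% and 21.97%) and at 1 to 5 kb from a TSS (26.2% and 17.4%).

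The members lay in 317 host genes, of which 290 were protein-coding, and 291 hosts held 1 member. Protein-coding hosts held 321 members (91.5%, 88.1% to 93.9%), against 94.4% of windows. The other members lay in 13 lincRNA genes, 13 genes of processed transcripts and 1 pseudogene. A total of 26 hosts held 2 or more, with 60 members between them. Odz4, which encodes a teneurin of the cell surface, held 4 members, of which 3 lay in intron 7 between 484.4 and 506.0 kb from its start. Frmd4b, a scaffold protein gene, held 3, of which 2 lay in intron 5 at 207.6 and 211.9 kb from its start and 1 in intron 2 at 105.5 kb. Gm13847, a noncoding gene, held 3 in intron 1. Mid1, an X-linked gene for a microtubule-associated ubiquitin ligase, held 3 in intron 9, between 308.9 and 320.2 kb from the start, beside a further region of 1260 bp that exceeded the width limit. Gm20388 held 5, but this gene model spans 4435 kb and covers other genes, and so does the 3009 kb model named Fgfr2, which held 2. Those 7 members can be assigned to these genes only by the annotation. Among hosts with 2 members were Gata4, Gja5, Ryr2, Cdh2, Rbm20, Sall1, Bcor and Fbn2.

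Host genes had a BRG1 region at their promoter more often than the genes around intronic windows. The host of 124 members (35.3%, 30.5% to 40.5%) had a region of the list within 1 kb of one of its TSSs, against 21.97% of windows. Of the 290 protein-coding hosts, 36.6% (31.2% to 42.2%) had one, compared with 11.9% of all 22367 protein-coding genes. Unlike the share of windows, that share over all genes is not weighted by the length of their introns. Members also lay near other regions, as 15.4% (11.99% to 19.5%) had another distinct region within 10 kb, against 6.97% (4.95% to 9.72%) of intergenic and 3.74% (3.03% to 4.60%) of promoter regions. Chromosome 11 held 12.5% (9.47% to 16.4%) of members and 5.40% of windows, and chromosome X held 1.99% (0.969% to 4.06%) and 4.90%.

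The gene lists named 531 genes in 13 groups, and 33 of these genes hosted 39 members. Across all protein-coding genes, 1.30% hosted a member, and there were 0.387 members per Mb of intron away from promoters. Among 37 cardiac transcription factor genes, Gata4 hosted 2 members on chromosome 14, both in intron 1 of the longest transcript that covers them, which has 1 intron and starts upstream of other Gata4 transcripts. One spanned 80 bp, 2.42 kb from the gene start with a GC content of 63.8%, and the other spanned 380 bp, 15.8 kb from the start with a GC content of 78.4%. Among 52 sarcomere and heart muscle genes, 3 hosted 5 members, or 1.17 per Mb. Ryr2, the calcium release channel of the sarcoplasmic reticulum, held 2 in intron 1 at 49.4 and 78.7 kb from its start. Gja5, a connexin of atrial and conduction cells, held 2 in intron 3 at 149.8 and 158.4 kb. Gja1, the main ventricular connexin, held 1 of 80 bp at 1.54 kb. Among 29 genes of BAF subunits, Arid1b hosted the 100 bp region in intron 3 whose sequence is printed above.

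Genes of signaling pathways and chromatin hosted members in small numbers. Of 65 Wnt pathway genes, 5 hosted 1 member each (1.52 per Mb): Wls, which carries Wnt ligands to the cell surface, with 800 bp, Ryk, a Wnt receptor, with 300 bp, Rnf43, which removes Frizzled receptors, with 200 bp, Wnt3 and Lgr4. Of 55 genes of FGF, VEGF and other receptor tyrosine kinase signaling, 5 hosted 6 (0.746 per Mb). Of these 6, 2 lay in the 3009 kb model named Fgfr2 and can be assigned to it only by the annotation, so the count and density depend on that model. The widest of the 6 lay in Spred2, an inhibitor of the MAP kinase cascade, at 960 bp, in Fgfr1 at 540 bp and in Fgf18, an FGF ligand, at 160 bp. Of 45 BMP, TGF-beta and Nodal genes, 3 hosted 1 each (1.14 per Mb), namely Smad4, the shared partner of receptor-regulated SMADs, Smurf1, a ubiquitin ligase for SMADs, at 640 bp, and Bmp7 at 560 bp. Of 47 chromatin regulators, 4 hosted 1 each (1.28 per Mb), namely Tet1 at 320 bp, Kdm6b at 260 bp, Chd7 at 160 bp and Kdm2b. Of 18 retinoic acid genes, the synthesis enzyme Aldh1a2 and the receptor Rxrg hosted 1 each (2.43 per Mb), and of 36 Notch and Hedgehog genes, Lfng, a modifier of Notch, hosted 1. Of 60 genes of the cytoskeleton and cell adhesion, 6 hosted 8 (0.637 per Mb), among them the laminin genes Lamc1 (860 bp) and Lama1 (840 bp) and Macf1 (780 bp). The lists of 29 endothelial and blood genes and of 26 endoderm and pluripotency genes held no host. Of 32 neural genes, many of them very long, Rbfox3 and Rbfox1 hosted 1 each, or 0.0720 per Mb. No test between lists was made, each count rests on 0 to 8 members, and 10 of the 13 lists lay above the density of all protein-coding genes.

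In base composition the regions stood between ordinary intronic sequence and promoters. Their median GC content was 53.1% (quartiles 48.8% and 59.5%). It was 46.0% in flanks, which are sequences of the same width 5 kb to either side, 55.7% in intergenic regions and 74.5% in promoter regions. Taking a GC content over 60% with a ratio of observed to expected CpG over 0.6 as CpG-rich, 47 members (13.4%, 10.2% to 17.4%) qualified. The share was 0.856% (0.393% to 1.85%) in flanks, 26.5% (22.6% to 30.8%) in intergenic regions and 93.3% (92.2% to 94.3%) in promoter regions. Hence the intronic regions were CpG-rich more often than their flanks and less often than the intergenic regions. CpG-rich members were more frequent in the first intron than in later introns, with 19.6% against 9.13% (difference 10.4 percentage points, 3.09 to 18.4). They were also more frequent within 5 kb of a TSS than at 20 kb or more, with 25% against 9.49% (15.5 points, 5.69 to 26.0). Where the host had a promoter region in the list they were less frequent, with 4.84% against 18.1% (a difference of -13.2 points, -19.3 to -6.28).

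RefSeq promoter sequences of assembly GRCm38, matched by shared runs of 40 bp, were found in 12 of 350 members long enough to hold one (3.43%, 1.97% to 5.90%), against 3.58% of flanks and 6.52% of intergenic regions. The match ignored position, and the regions in Ppp1r9a and Myo3a each shared runs with promoters of several genes. Of the 12 members, 8 were CpG-rich. A total of 4 held part of a RefSeq promoter of their own host gene, namely Esrrg, Sall1, Akap7 and Adk. For those 4 the M1 annotation places no TSS within 1 kb, so they lie in introns by that annotation only.

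Of 24 sequence patterns searched on both strands, among them a longer GATA word (TGATAAG) and the shorter T-box word that overlap the main ones, 6 were more frequent in members than in flanks and 0 were less frequent. The 6 include both AGATAA and the set of 4 GATA words that contains it. Of all words of 6 letters, compared below, 16.5% were more frequent in members than in flanks and 22.5% less frequent. Among the 24 patterns the largest difference was that of the MEIS word TGACAG, the core bound by TALE homeodomain factors. It occurred in 137 of 351 members (39.0%, 34.1% to 44.2%) and in 114 of 701 flanks (16.3%), a difference of 22.8 percentage points (17.02 to 28.6). Read backwards without complementing, which keeps the letters and changes their order, the same word occurred in 17.4% of members and 13.4% of flanks (3.97 points, -0.548 to 8.87). Intergenic regions held the word in 35.3%, against 19.2% of their own flanks (16.05 points, 10.96 to 21.2), and intronic and intergenic regions did not differ by more than their interval. In members, 101 held it once, 26 held 2 copies and 10 held 3. The widest members with 3 copies lay in Mgat5 (860 bp), Lama1 (840 bp), Skap1 (800 bp), Gm12295 (740 bp) and Fig4 (660 bp), and the Rfx8 region printed above held 3 in 100 bp.

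GATA words were also more frequent in members, by a smaller margin. AGATAA occurred in 72 members (20.5%, 16.6% to 25.05%) and 14.8% of flanks (5.68 points, 0.867 to 10.8), whereas its backward spelling occurred less often in members than in flanks, in 5.41% against 12.3% (-6.86 points, -10.1 to -3.21). Any of the 4 GATA words occurred in 46.4% and 36.1% (10.3 points, 4.05 to 16.6). Intergenic regions held AGATAA in 25.8%, and intronic and intergenic regions did not differ by more than their interval. The regions with the most copies lay in Atf7ip, Lamc1, Fgfr1 and Rgs6, with 3 AGATAA words each, at widths from 540 to 980 bp. A further 11 members held 2, of which the widest lay in Skap1 (800 bp), and the Pawr region printed above held 2 in 140 bp. AGATAA was more frequent in members of 200 bp or more (26.6%) than in narrower ones (15.7%, a difference of 10.9 points, 2.33 to 19.6). Their flanks, of the same widths, held it in 24.4% and 7.38%. The narrower members were thus above their flanks (8.36 points, 3.002 to 14.5). For the wider members no difference from flanks was found (2.27 points, -5.87 to 10.99). In the central 200 bp of the 154 members of 200 bp or more, AGATAA occurred in 13.6%. The central 200 bp of their flanks held it in 13.3% (0.325 points, -5.89 to 7.47), so no difference from flanks was found there. Set against intronic windows of the same GC content instead, central sequence of 40% to 50% GC held it in 23.5% (14.0% to 36.8%) against 11.1%, above the windows, and central sequence of 50% to 60% GC in 10.9% (5.10% to 21.8%) against 5.73%, within the interval. The longer word TGATAAG occurred in 6.27% of members and 4.42% of flanks (1.85 points, -0.906 to 5.15), which included 0. With the same restriction TGACAG occurred in 31.8% against 13.6% (18.2 points, 10.1 to 26.6).

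TEAD factors act at the end of the Hippo pathway, and their word ACATTCC occurred in 33 members (9.40%, 6.77% to 12.9%) and 2.996% of flanks (6.41 points, 3.36 to 10.1). Intergenic regions held it in 11.01%. The E-box CAGCTG, bound by MYOD-type factors, occurred in 19.1% of members and 10.8% of flanks (8.25 points, 3.71 to 13.2), and was more frequent still in intergenic regions, at 27.9%. The GC box GGGCGG occurred in 16.2% of members and 3.71% of flanks (12.5 points, 8.66 to 16.9), and in 28.1% of intergenic regions. Its backward spelling, GGCGGG, occurred in 18.2% of members and 5.85% of flanks (12.4 points, 8.19 to 17.01). Both spellings lie within GGGCGGG, so the backward form cannot show whether the order of the letters matters. GGGCGG occurred in 52.6% of the 78 members over 60% GC, against 8.39% of their flanks. In the other 273 members it occurred in 5.86%, against 2.38% of flanks (3.48 points, 0.713 to 7.06). The part of GC content in the excess was not tested.

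No difference from flanks was found for T-box and MEF2 sequences. The T-box word AGGTGTGA occurred in 4 members (1.14%, 0.444% to 2.89%) and 1.28% of flanks (-0.144 points, -1.48 to 1.71). These 4 lay in Prkag2 (480 bp), which encodes a subunit of the energy sensor AMPK, in Add3 (360 bp), a cytoskeletal adducin, and in Uvrag and Kifap3. The shorter T-box word AGGTGT occurred in 14.8% and 15.5% (-0.734 points, -5.13 to 4.06). The MEF2 consensus occurred in 6 members (1.71%, 0.786% to 3.68%) and 3.57% of flanks (-1.86 points, -3.74 to 0.418). Against flanks 20 kb away the difference was -3.15 points (-5.23 to -0.760), below 0. Read backwards, the consensus was below flanks 5 kb away, at 1.14% against 3.42% (-2.28 points, -4.05 to -0.208), so a lower share was not particular to the order of its letters. Intergenic regions held the consensus in 1.80%, against 4.05% of their own flanks (-2.25 points, -4.00 to -0.214). The widest of the 6 members with the consensus lay in Atf7ip, Shroom3 (820 bp), Rbm20 (760 bp), a splicing regulator of titin, Bach2 (760 bp) and Gm16908 (720 bp). With so few members, shares up to 2.89% for T-box and 3.68% for MEF2 remain within the intervals. The NK2 words TCAAGTG or TTAAGTG (7.69% against 7.42%), the SOX words AACAAAG or AACAATG (7.69% against 8.70%), the AP-1 words TGACTCA or TGAGTCA (4.27% against 4.28%) and the SRF consensus (1.14% against 1.28%) lay near their flanks. The E-box CATCTG of HAND factors occurred in 22.8% against 18.1% (4.68 points, -0.403 to 10.1), and the nuclear receptor word AGGTCA in 13.1% against 13.98%. In the 273 members of 60% GC or less CATCTG was above flanks, at 26.7% against 18.5% (8.24 points, 2.24 to 14.6). In those members 190 of all 2080 words of 6 letters were above flanks. The words of homeodomain (TAATTA), TCF and LEF (ATCAAAG), RUNX (TGTGGTT) and POU factors (ATGCAAAT) each had a lower share than flanks with an interval that included 0, as did the ETS word CCGGAA with a higher one (3.99% against 2.85%). The CTCF consensus was found in 2 members and 0 flanks. The NFI consensus was found in 0 members (upper end of the interval 1.08%) and 0 flanks. Only 0.0122% of intronic windows held it, so it is too rare for a comparison. The forkhead word GTAAACA occurred in 1.99% of members and 2.85% of flanks, and less often than in intergenic regions (5.39%).

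**Figure D2:**
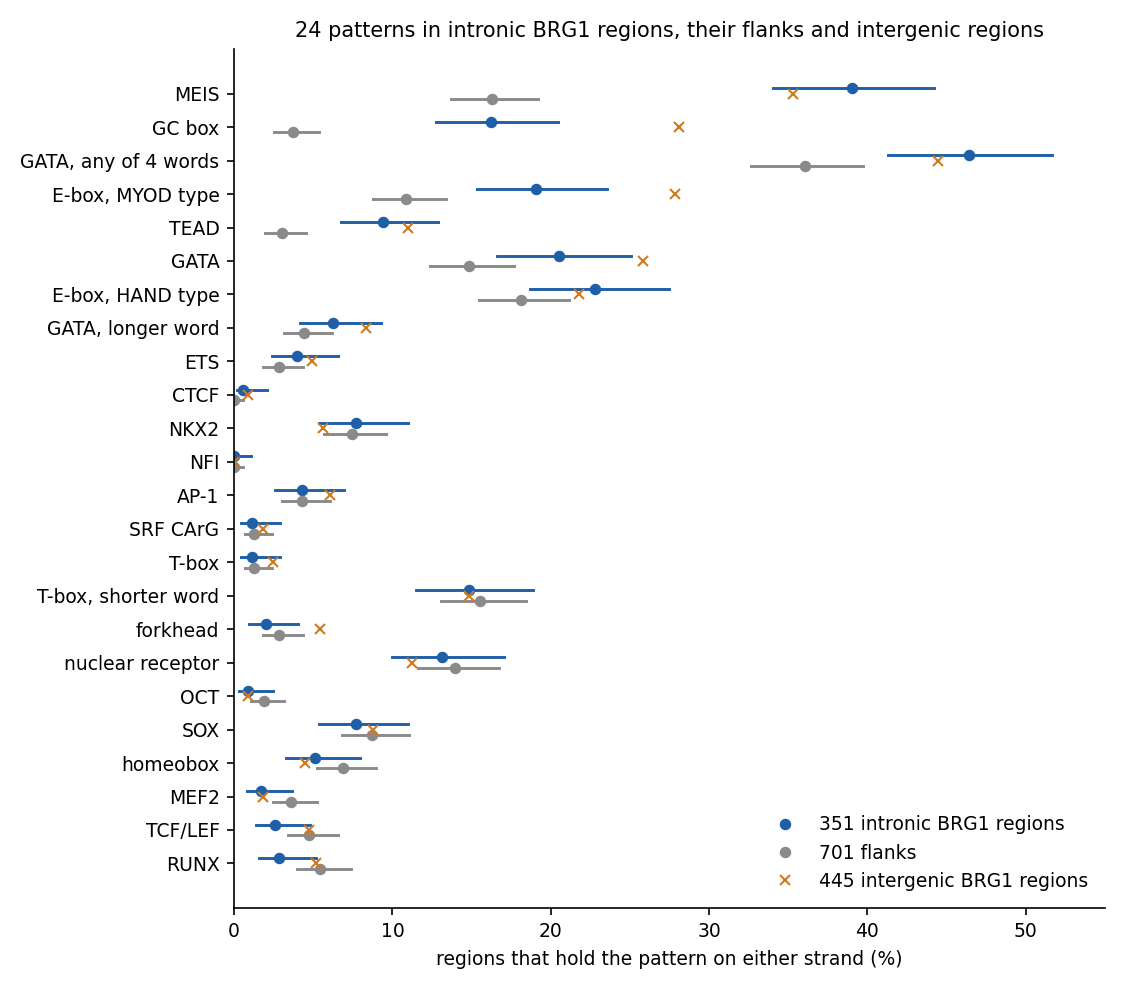
Share of regions that hold each of 24 patterns on either strand, in %, for 351 intronic BRG1 regions (blue) and 701 flanks (grey) with 95% Wilson intervals as lines, and for 445 intergenic BRG1 regions (orange crosses). MEIS stands farthest to the right of its flanks (39.0% against 16.3%), whereas the T-box and MEF2 intervals overlap those of their flanks.

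Because base composition alone can shift the share of a word, all 2080 words of 6 letters were compared in the same way. Of these, 16.5% were more frequent in members than in flanks and 22.5% less frequent, and 200 of the 343 more frequent words held a CpG. When ranked by the lower end of the interval, the MEIS word TGACAG was number 1 of 2080, in all members and in the 273 members with a GC content of 60% or less, where it occurred in 45.4% against 17.2% of flanks (28.2 points, 21.5 to 34.8). In intergenic regions it ranked 73. AGATAA ranked 261, among the 343 words above, and by itself did not stand apart from that background of 16.5%. In members of 60% GC or less it ranked 32, at 26.0% against 15.9% (10.1 points, 4.21 to 16.3). The overlapping words CTGACA (rank 3) and GACAGC (rank 4) share letters with TGACAG and do not count as separate results. A total of 287 words were more frequent than flanks in both intronic and intergenic regions.

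**Figure D3:**
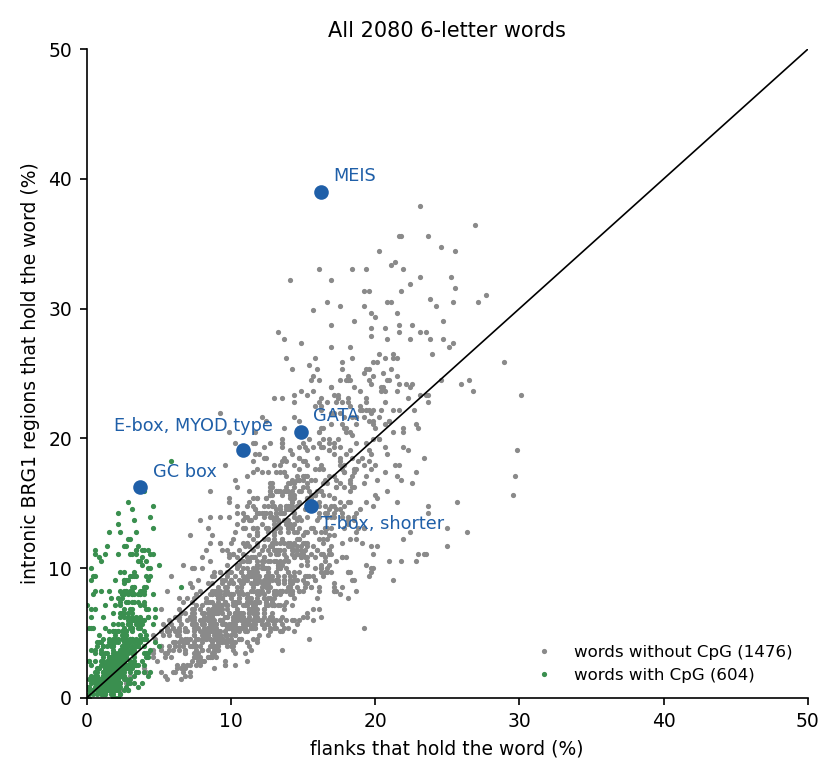
Each point is 1 of 2080 6-letter words, by the share of flanks (horizontal axis, %) and of intronic BRG1 regions (vertical axis, %) that hold it on either strand, with CpG-containing words in green and the line of equal shares in black. The MEIS word (39.0% against 16.3%) lies above the cloud, whereas the GATA word (20.5% against 14.8%) and the shorter T-box word (14.8% against 15.5%) lie within it.

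Some longer spellings were compared after the shorter ones had been seen. AGATAAG occurred in 11.97% of members and 4.14% of flanks, and AGATAAGG in 5.98% and 0.713% (5.27 points, 3.02 to 8.29). CTGACAG occurred in 17.1% and 5.56%, and GTTGACAG in 5.98% and 0.571% (5.41 points, 3.19 to 8.42). Intergenic regions held AGATAAG in 13.7% against 3.15% of their flanks, AGATAAGG in 5.39% against 1.01%, CTGACAG in 13.9% against 6.19% and GTTGACAG in 2.02% against 1.35%. A joint PBX and MEIS spelling, TGATTGAC, occurred in 2 members (0.570%) and 0.571% of flanks.

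The MEIS, GATA and TEAD words were denser within 200 bp of the midpoints than farther out. Within 200 bp of the midpoints of members TGACAG occurred 1.84 times per kb, against 0.836 per kb from 1 to 3 kb away, a ratio of 2.20. Its highest value, 2.59 per kb, lay in the 100 bp just before the midpoint in plus-strand order. AGATAA occurred 0.990 times per kb near midpoints and 0.578 farther out (ratio 1.71), and ACATTCC 0.363 and 0.155 times per kb (ratio 2.35), the latter highest from 100 to 200 bp after the midpoint with 17 words (0.484 per kb). These densities cover all members, and the narrower ones are not part of the comparison of central 200 bp above. The shorter T-box word was level, at 0.655 and 0.623 per kb. Reversed TGACAG stood at 0.840 and 0.606 per kb in members (ratio 1.39), while reversed AGATAA and ACATTCC were sparser near midpoints. In promoter regions all of these words were sparser near midpoints than farther out. There TGACAG stood at 0.418 and 0.702 per kb, AGATAA at 0.0934 and 0.620 per kb and the shorter T-box word at 0.242 and 0.673 per kb. Their reversed letters were sparser there too (0.224 and 0.556 per kb for TGACAG), so the dip was not particular to these words.

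**Figure D4:**
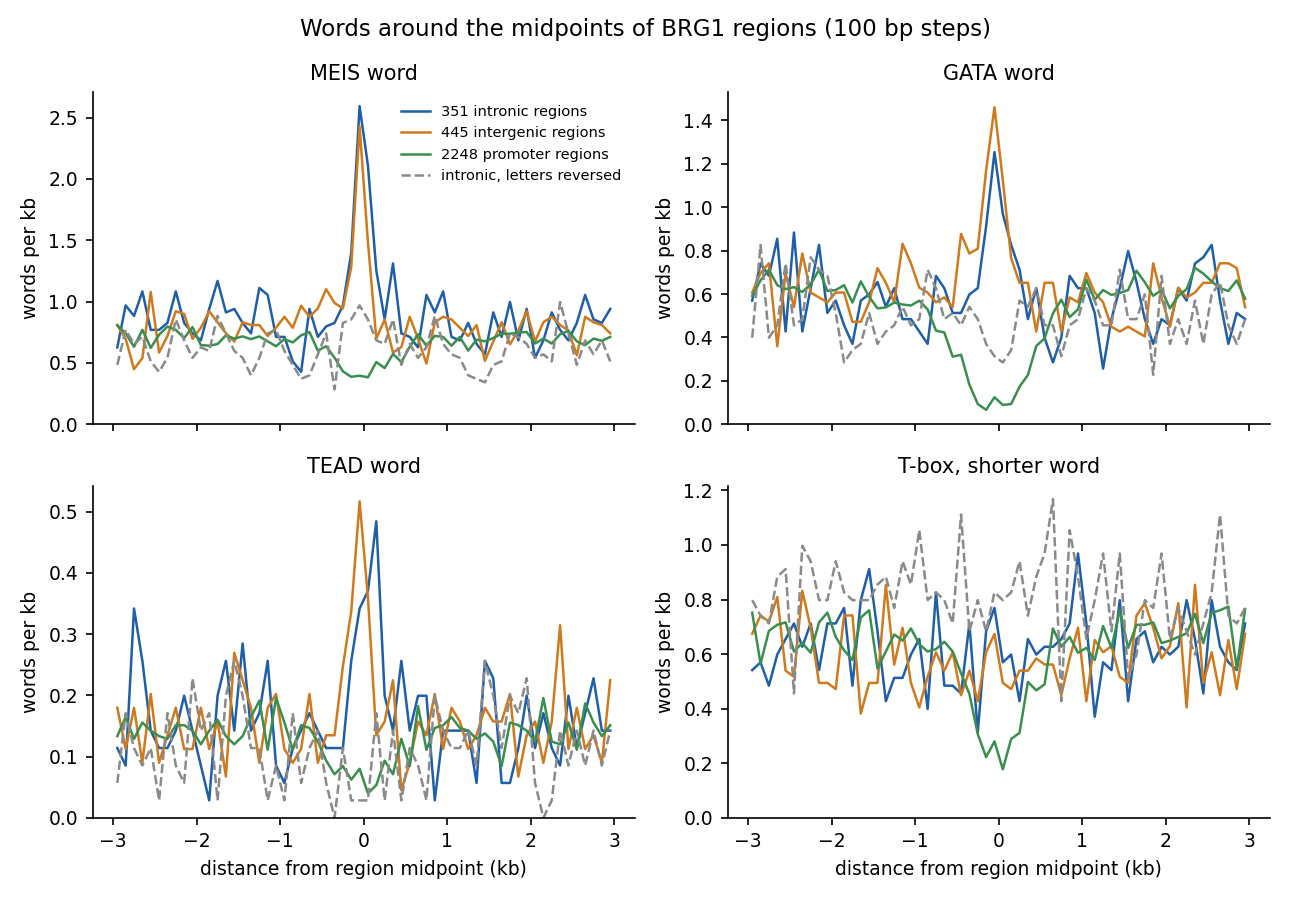
Words per kb in steps of 100 bp against the distance from the region midpoint in kb, for 351 intronic (blue), 445 intergenic (orange) and 2248 promoter regions (green), and for the reversed letters in intronic regions (dashed grey). The MEIS and GATA words peak beside the midpoint of intronic and intergenic regions (2.59 per kb for MEIS in intronic regions). For the TEAD word in intronic regions the highest step, 100 to 200 bp after the midpoint, rests on 17 words (0.484 per kb). The step from 0 to 100 bp held 13 words. The shorter T-box word has no peak at the midpoint in intronic or intergenic regions. Every word shown, the shorter T-box word included, dips in promoter regions.

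The words also varied together among the members. A GATA word was present in 56.2% of the 137 members with TGACAG and 40.2% of those without it (16.02 points, 5.31 to 26.2), which left 128 members with neither. CAGCTG occurred in 26.3% and 14.5% (11.8 points, 3.26 to 20.7), and CpG-rich members were rarer among those with TGACAG, at 4.38% against 19.2% (-14.8 points, -21.0 to -8.02). Wider members hold more words of any kind and GC content differs between these groups. The part of width and GC content in these differences was not tested. Members whose host had a promoter region in the list held the TEAD word in 15.3%, against 6.17% of the others (9.16 points, 2.57 to 16.9), while TGACAG did not differ between them (38.7% and 39.2%, -0.497 points, -10.9 to 10.2). Between the first and later introns the share with TGACAG was 33.6% and 42.8% (-9.22 points, -19.1 to 1.17) and with AGATAA 19.6% and 21.2% (-1.57 points, -9.86 to 7.25), within the intervals in both cases. These comparisons of subsets were not adjusted for their number.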

How the data were processed

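BRG1 ChIPseq regions of wild-type CPs were taken as the authors deposited them, as chromosome, start and end positions in mm9 with no value, in 1 list for 2 ChIP libraries and 1 input. Per the study's methods, single-end reads were trimmed with fastq-mcf, aligned with Bowtie and filtered on mapping quality, and bins enriched over input were called. How the 2 libraries were combined is not given in the sources used here, and depth is unknown. Region ends fall on a grid of 20 bp.

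Identical rows were counted once. Positions were compared with GENCODE M1 and sequence was read from NCBIM37. The host is the longest protein-coding gene over the region, or the longest gene where none is coding. Shares carry 95% Wilson intervals and differences Newcombe intervals, which treat regions as independent and cover no replicate error. Each share of members is set beside 701 flanks of the same width 5 kb away, intergenic regions or 879749 intronic windows of 200 bp. No p-value was computed. Word counting and intervals were tested on simulated data. Python 3.11.15, NumPy 2.4.6 and SciPy 1.17.1 were used.

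The members, gene lists and patterns were chosen with earlier results of these data known. Named members are the 5 widest and 3 narrowest, with ties in width broken arbitrarily, and those nearest to a limit. Also named are those in cardiac transcription factor, heart muscle and BAF genes, and up to 3 per other list. Hosts with 3 or more members are named too, and up to 5 members each for the GATA, T-box and MEF2 patterns, widest first. The members named for the MEIS word were added later. Alternatives changed the promoter window, width limit, row counting, flanks, central 200 bp, GC content, words and hosts.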

Additional observations from a re-analysis of the deposited data

How the results depend on the processing

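No paired analysis was possible because the 2 ChIP libraries share a single set of positions without values, and no library could be left out for the same reason. Of 55 alternatives to 9 results, 14 of them added after seeing the data, 48 were counted as unchanged. A difference was unchanged where its interval lay on the same side of 0, or again included 0. A share or median was unchanged within the main interval, and a count where it stayed of similar size. The T-box difference of -0.144 was above 0 with members under 500 bp (0.163), flanks 20 kb away (0.281) and GC content up to 60% (0.183). Each of those intervals included 0. The MEIS difference stayed above 0 in all 10 of its alternatives. The GATA difference, 5.68 points, fell to 0.325 (-5.89 to 7.47) in the central 200 bp, where wide members are trimmed and narrow ones dropped, and to 1.85 (-0.906 to 5.15) with the rarer word TGATAAG. The causes were not tested. Without 13 members that share 30 bp with another it was 4.86 (0.0743 to 10.02), so that its lower end is close to 0. The MEF2 difference of -1.86 passed below 0 with no width limit (-2.43, -4.40 to -0.114), with members under 500 bp (-2.31, -3.93 to -0.492) and with flanks 20 kb away (-3.15, -5.23 to -0.760), so that MEF2 sites were less frequent than in flanks under those 3 settings only. The first-intron share of 40.7% became 49.6% when any transcript of the host may count, and the median distance of 12.8 kb became 20.4 kb with TSSs of protein-coding genes only. The number of members ranged from 312 with promoters of 2 kb to 380 with promoters of 500 bp.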

Other observations

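The 20 intronic regions that were left out for a width of 1000 bp or more reached 2160 bp in Eif4e3, 1620 bp in Auts2 and 1560 bp in Cbx7, and included regions in the receptor gene Notch2 (1100 bp) and the BMP inhibitor gene Smad6 (1080 bp). Those in Eif4e3, Mid1 and Mapkap1 were listed on 4 rows each. In the central 200 bp of members with a GC content from 50% to 60%, TGACAG occurred in 29 of 55 (52.7%, 39.8% to 65.3%), against 16.3% of intronic windows in the same GC range. From 40% to 50% GC it occurred in 15 of 51 (29.4%, 18.7% to 43.0%) against 14.1%, and over 60% in 5 of 36 (13.9%, 6.08% to 28.7%) against 15.0%, where the interval includes the windows. Over 60% GC, AGATAA occurred in 1 of 36 (2.78%, 0.492% to 14.2%) against 2.20%, likewise with the windows inside the interval.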
